A study of Mus musculus with 4 samples.

Results

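Resting regulatory T cells of the tumour-draining lymph node (TDLN) numbered 310 of the 42163 cell barcodes in the 4 libraries, 170 in the library of the NanoCa-treated group and 140 in the mock library. They were chosen from the counts of unique molecular identifiers (UMIs, each standing for 1 captured transcript) in the barcode. A member had at least 200 genes, at most 10% of its UMIs from mitochondrial genes, at least 1 UMI over Cd3d, Cd3e and Cd3g and at least 1 UMI of Foxp3. It also had no UMI of Cd8a, Cd8b1 or Cd79a, and none of Tnfrsf9, Ccr8 or Itgae, the 3 genes whose detection placed a Foxp3-positive T cell among the effector regulatory T cells instead. These genes chose the members, so their levels are a description and no test was made of them.

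Regulatory T cells hold other lymphocytes in check and are defined by the transcription factor Foxp3, which keeps up genes such as the high-affinity interleukin-2 receptor chain Il2ra and the inhibitory receptor Ctla4. In lymph nodes, resting (also called central) regulatory T cells circulate between blood and node. They carry the homing receptor Ccr7 and the egress receptor S1pr1, and depend on interleukin-2 made by other T cells. After activation by antigen they become effector regulatory T cells, which lower these homing genes, divide, and take up receptors such as Tnfrsf9, Ccr8, Icos and Tigit.

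The series held 4 single-cell RNA-seq libraries made with the 10x Genomics 3' v2 chemistry, 1 each from the tumour and the TDLN of the NanoCa group and of the mock group. All animals were female mice 4 to 8 weeks old that bore tumours of CT26, a colon carcinoma cell line of the mouse, and the labels give 1 batch date for all 4 libraries. NanoCa is, per the series title, a lipid nanoparticle with a calcium crystal structure, meant for immunotherapy through interferon beta. Dose, timing and the number of mice behind a library were not given in the sources used here. Antibodies to CD45, a surface protein of leukocytes, were used for sorting on a flow cytometer, with the gate unstated. The mock libraries are tagged as untreated, while a protocol field names NanoCa for all 4 libraries, so each NanoCa to mock ratio rests on the titles and treatment tags. With 1 library per group no difference between groups could be tested, and all intervals are exact 95% intervals that cover counting error only.

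In the lymph node, 11072 barcodes with 74909974 UMIs were deposited for NanoCa and 10400 with 106579362 UMIs for mock, of which 11013 and 10268 passed the filters on genes and mitochondrial share. The members had a median of 3530.5 UMIs in the NanoCa library (range 777 to 22456) and 3762 in the mock library (range 1279 to 45454). Their summed counts were 725965 and 689715 UMIs. Medians of 1596.5 and 1637.5 genes were detected per member. The mitochondrial share had a median of 2.01% and 2.05% and a maximum of 4.65% and 4.13%, so no member lay near that limit. The TDLN libraries shared 145 barcode sequences, and none of these was a member in both.

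A few members carried many UMIs of genes of other cell types, and they weighed on the summed counts. Over the marker lists of stromal, myeloid, carcinoma and B cells and the class II antigen-presentation genes H2-Aa, H2-Ab1, H2-Eb1 and Cd74, 2 of 170 members of the NanoCa library and 5 of 140 of the mock library had more than 20 UMIs. Those left had at most 17 and 19, and the 7 over the limit had at least 35 and 44. The 2 held 3.77% of the members' UMIs in the NanoCa library, and the 5 held 17.1% in the mock library. One barcode of the NanoCa library, with 21515 UMIs, held 2011 UMIs of the class II genes, among them 595 of the 630 UMIs of H2-Aa. One of the mock library, with 45454 UMIs, held 2654 UMIs of the stromal list, among them 574 of the 586 UMIs of the collagen gene Col1a1. Without these 7 barcodes 168 and 135 members were left, and the stromal list summed to 196 CPM (counts scaled to 1000000 UMIs of the population) in the NanoCa and 203 CPM in the mock library, against 194 and 4112 CPM with them. The limit of 20 UMIs was chosen after seeing the data. Levels and ratios of genes in the members are given without these barcodes unless all members are named. For levels and ratios, effector and Foxp3-negative CD4 T cells were held to the same limit. B cells were not, so their values include mixed barcodes. The ratio between the libraries with all members is added where its sign or its call differs or it moves by over 1.5-fold.

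**Figure D1:**
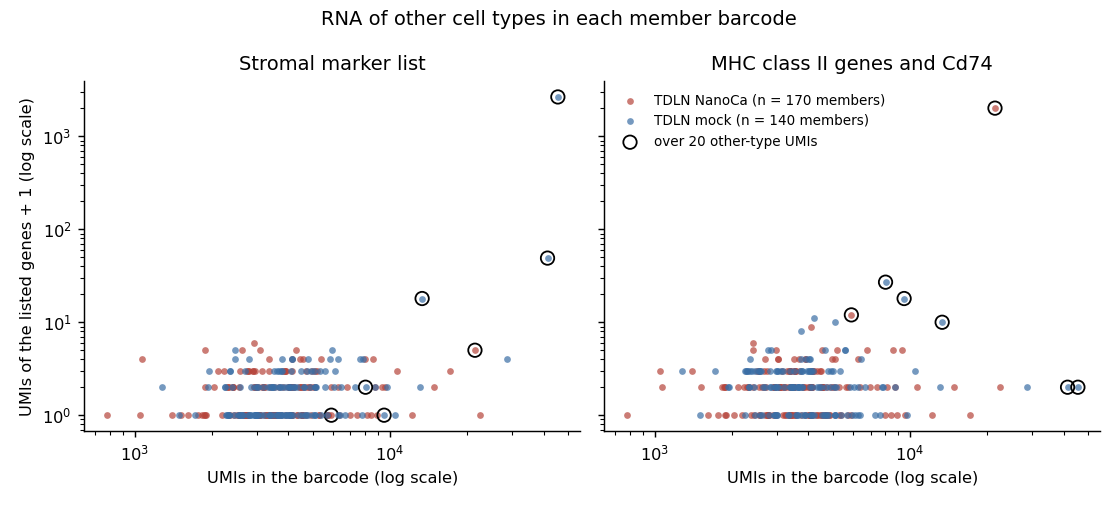
Each point is 1 resting regulatory T cell of the TDLN; the x axis gives its UMIs and the y axis its UMIs of the stromal list or of 4 class II genes plus 1, all on log scales. Circles mark the 2 NanoCa and 5 mock barcodes with more than 20 UMIs of other cell types; the highest stand at 2011 class II UMIs (NanoCa) and 2654 stromal UMIs (mock).

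Most members passed the rule narrowly on Foxp3. Exactly 1 UMI of Foxp3 was found in 90 of 170 members (NanoCa) and 73 of 140 (mock). Those with 1 UMI had lower levels of Ctla4 (467 and 444 CPM) and of the costimulatory receptor Tnfrsf4 (427 and 415 CPM) than the 80 and 67 members with 2 or more, in which Ctla4 stood at 853 and 781 CPM and Tnfrsf4 at 702 and 941 CPM. Ikzf2 did not follow this order in both libraries. It was at 448 CPM with 1 UMI against 383 CPM in the NanoCa library, and at 283 against 394 CPM in the mock library. Median UMIs were 3310 against 3900 in the NanoCa library and 3767 against 3752 in the mock library. Just outside the rule lay 45 and 47 Foxp3-positive T cells with a single UMI over Tnfrsf9, Ccr8 and Itgae. They had more of the transcription factor Ikzf2 (880 and 670 CPM). Of cells that met every other part of the rule, 35 and 21 were left out for a Cd8 UMI and 22 and 16 for a Cd79a UMI. A Foxp3 UMI was found in 0.536% and 0.526% of B cells (median 3812 and 3922 UMIs) and in 3.70% and 2.48% of CD8 T cells.

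The 3 markers given for these cells beside Foxp3 were detected in part of them. Il2ra had a UMI in 42.4% and 37.9% of members, Ikzf2 in 52.9% and 45.7%, and the folate receptor family gene Izumo1r in 51.8% and 63.6%. In B cells of the NanoCa library, a population that should lack them, the shares were 1.44%, 1.65% and 0.783%. Members were shallower than effector regulatory T cells (median 4728.5 and 5247 UMIs), so cells were also thinned to 2000 UMIs each before the rule was applied, which gave 141 and 129 resting cells; 13 and 5 members were too shallow to be thinned. These cells are not a subset of the members, since a cell that lost its UMIs of Tnfrsf9, Ccr8, Itgae, Cd8a, Cd8b1 or Cd79a in thinning enters the set. Of them, 27.7% and 33.3% had a UMI of Il2ra, 49.6% and 41.9% of Ikzf2, and 44.0% and 51.9% of Izumo1r. The Ikzf2 share in thinned B cells was 0.772% and 0.423%. All 3 markers stood far above the share in B cells in both libraries.

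Resting regulatory T cells made up similar shares of T cells in both libraries. They were 170 of 4372 CD8-negative T cells in the NanoCa library, 3.89% (3.33 to 4.50, Clopper-Pearson), and 140 of 3623 in the mock library, 3.86% (3.26 to 4.54). The log2 ratio of NanoCa to mock was 0.0090 (-0.32 to 0.34). Among Foxp3-positive T cells they were 43.1% (38.2 to 48.2) of 394 and 41.3% (36.0 to 46.7) of 339, with a log2 ratio of 0.063 (-0.27 to 0.40). With the rule applied after thinning, the shares of Foxp3-positive T cells were 51.8% and 55.1%, so the share itself moved with depth. The same rule in the tumour found 17 of 57 Foxp3-positive T cells in the NanoCa library, 29.8% (18.4 to 43.4), and 18 of 53 in the mock library, 34.0% (21.5 to 48.3), too few for levels of genes.

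Against Foxp3-negative CD4 T cells of the same node (1595 and 1299 cells without mixed barcodes) the members carried the genes of regulatory T cell identity. This contrast is the one that the rule used, so the values describe the cells and nothing is read from their number. Of 2926 genes at 50 CPM or more, 117 were at least 1.5-fold higher in the members in both libraries (4.00%) and 54 at least 1.5-fold lower (1.85%); with all members the shares were 3.72% and 1.69%. Of the 20 genes of the identity list 13 were measured and 12 were higher, none lower, with a median log2 ratio of 2.82 (NanoCa) and 2.99 (mock).

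Among receptors for interleukin-2, Il2ra stood at 212 CPM in members and 6.9 CPM in Foxp3-negative cells of the NanoCa library, and at 191 and 8.1 CPM in the mock library. Il2rb, the signalling chain of the same receptor, stood at 226 against 19.8 CPM and 262 against 19.5 CPM. In neither library did the intervals of the populations overlap for these genes. Lrrc32, which holds latent transforming growth factor beta at the cell surface, was at 74.4 against 0.99 CPM and 55.9 against 1.9 CPM. The orphan receptor gene Gpr83, long used as a marker of mouse regulatory T cells, was at 55.8 against 3.7 CPM and 69.9 against 4.4 CPM. Ikzf2, which encodes Helios, was at 414 against 17.2 CPM and 341 against 19.6 CPM. Ikzf4, which encodes the related factor Eos, had log2 ratios of 2.61 and 2.73.

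The receptors through which regulatory T cells meet costimulation followed the same order. Ctla4, which competes for the ligands of Cd28, was at 671 CPM in members and 110.0 CPM in Foxp3-negative cells of the NanoCa library, and at 621 and 101 CPM in the mock library. Tnfrsf4 (OX40) was at 573 against 80.9 CPM and 691 against 87.0 CPM. Tnfrsf18 (GITR) was at 444 against 151 CPM and 472 against 154 CPM, with log2 ratios of 1.56 and 1.62. Icos did not differ by the fold used, at 263 against 235 CPM and 257 against 250.5 CPM. Beyond the lists, the netrin gene Ntn4 was at 114.5 against 5.4 CPM and 75.2 against 5.1 CPM. The phosphatase gene Dusp4 had log2 ratios of 3.14 and 3.21, and the Rac activator Tiam1 3.34 and 2.39.

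The promoter of Tnfrsf18 is shown because it was 1 of 2 in the identity list, with Fgl2, that held the letters TTCNNNGAA, the palindrome bound by STAT5 downstream of the interleukin-2 receptor. The 250 bases before the start site were read from RefSeq on GRCm38.p6, chr4:156026072-156026321, plus strand, with the match in capitals. The count files do not name their own build.
Tnfrsf18: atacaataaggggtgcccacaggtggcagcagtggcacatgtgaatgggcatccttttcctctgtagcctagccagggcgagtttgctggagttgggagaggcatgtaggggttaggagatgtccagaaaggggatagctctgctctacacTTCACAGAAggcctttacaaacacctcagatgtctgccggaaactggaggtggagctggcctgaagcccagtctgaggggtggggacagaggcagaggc
Of the 20 listed genes 14 matched a promoter in the table. A listed gene counted as holding the letters if any promoter of that gene did, while the shares over all promoters count each promoter by itself. TTCNNNGAA reads the same on both strands and occurred in 7.02% of all 32851 promoters of this length, against 2 of the 14. The forkhead core TGTTTAC, searched on both strands, was in 3.17% of all promoters and in 0 of the 14. A match is a description of the letters, not a site of binding.

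The members shared less with conventional CD4 T cells on the naive side. Of 15 listed genes of naive conventional CD4 T cells, 13 were measured, 8 were lower in the members and 1 (Smc4) was higher. One of the 8 was Cd4, of which each comparison cell had to have a UMI. Il7r, the receptor for the survival cytokine interleukin-7, was at 235 CPM in members against 637 CPM in the NanoCa library and at 217 against 559 CPM in the mock library. The transcription factors Tcf7 and Lef1, which mark naive T cells, were both lower. Tcf7 was at 122 against 294 CPM and 138 against 325 CPM, and Lef1 at 507 against 1022 CPM and 561 against 968 CPM. Igfbp4 was at 228 against 559 CPM and 226 against 616 CPM. Cd40lg, the helper ligand for B cells, had log2 ratios of -1.05 and -1.05. The survival gene Bcl2 went the other way, at 209 against 111 CPM and 229 against 108 CPM.

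Homing genes were at similar levels in the members and in Foxp3-negative CD4 T cells. Ccr7 was at 2631 against 2123 CPM and 2486 against 1794 CPM, and Klf2, the factor that sustains both egress and homing, at 2449 against 2567 CPM and 1769 against 1658 CPM. Neither reached 1.5-fold in both libraries. Of 16 measured genes of homing and egress, none was higher and Gpr183, a receptor for oxysterols, was lower. The 8 measured Gimap genes, a family tied to lymphocyte survival, held no gene past the fold in either direction.

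**Figure D2:**
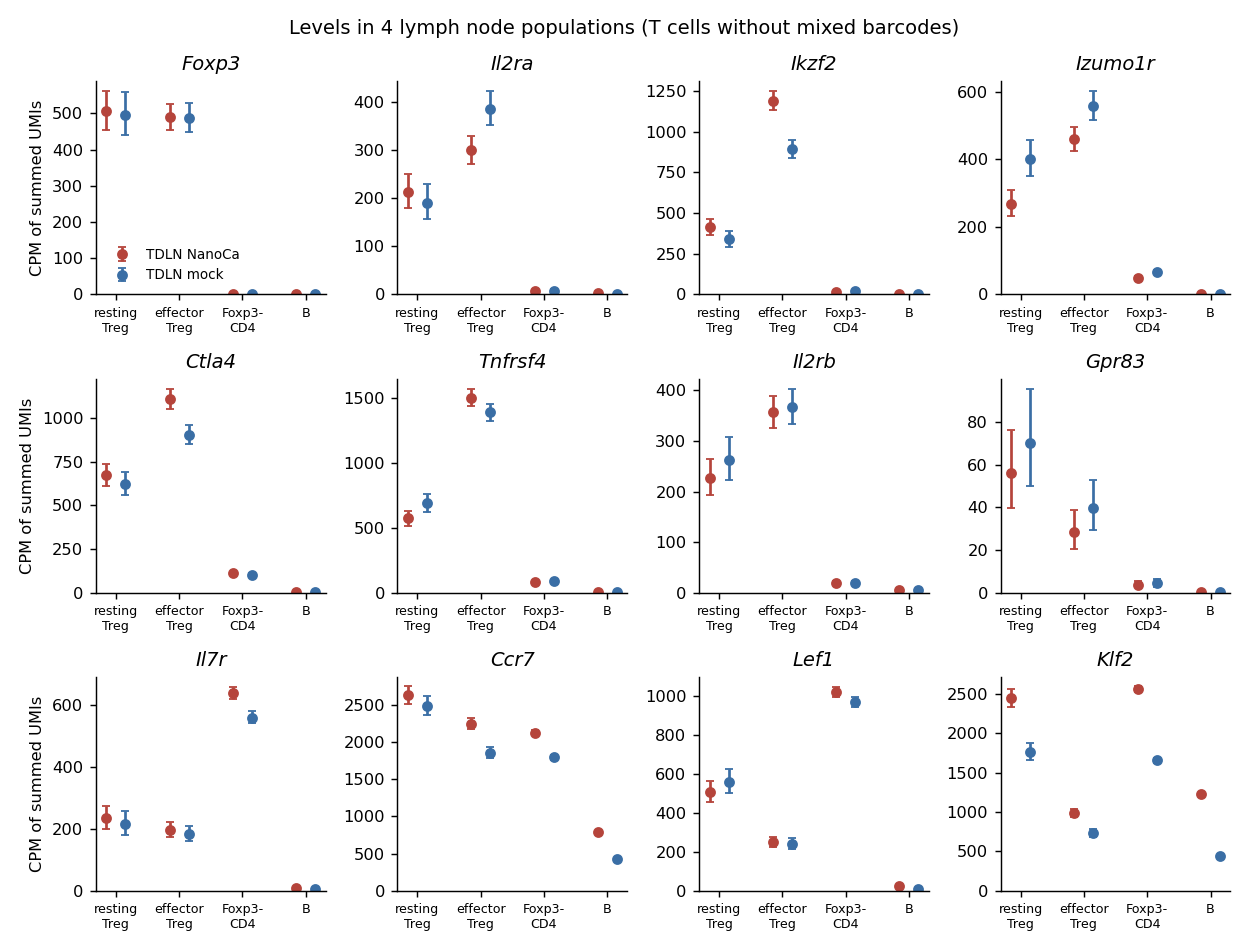
The y axis gives the level in CPM of the summed UMIs and the x axis 4 lymph node populations, in red for NanoCa and blue for mock; bars are exact Poisson 95% intervals, and mixed barcodes are left out of the T cells but not of the B cells. Ikzf2 stands at 414 and 341 CPM in resting, 1191 and 892 CPM in effector and under 20 CPM in Foxp3-negative CD4 cells, whereas Klf2 is highest in the resting and Foxp3-negative cells.

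Against effector regulatory T cells (210 and 184 cells without mixed barcodes) the members had more of several genes of recirculation and less of the genes of activation. The rule set these populations apart by Tnfrsf9, Ccr8 and Itgae, so this is also a description. Of 3140 genes, 110 were at least 1.5-fold higher in both libraries (3.50%) and 285 lower (9.08%); with all members the shares were 5.59% and 9.89%. Foxp3 itself was at 505 CPM in resting and 489 CPM in effector cells of the NanoCa library, and at 497 and 487 CPM in the mock library. Both populations were chosen for a Foxp3 UMI, so these values are fixed in part by the rule.

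Of 16 measured genes of the resting list 10 were higher in the members and none was lower, with median log2 ratios of 0.90 and 1.11. Klf2 was at 2449 CPM in resting and 985 CPM in effector cells of the NanoCa library, and at 1769 and 731 CPM in the mock library. S1pr1, the receptor for exit from the node, was at 401 against 170.0 CPM and 316 against 105 CPM. Lef1, Tcf7, Satb1, Bach2, Klf3, Igfbp4 and Bcl2 were also past the fold, with Igfbp4 at 228 against 62.2 CPM and 226 against 67.7 CPM. Satb1, a chromatin organiser, was at 716 against 270.1 CPM and 580.4 against 252 CPM. Of 8 Gimap genes 4 were higher, among them Gimap6 at 601 against 249 CPM and 552 against 254 CPM. Ccr7, at 2631 against 2247 CPM and 2486 against 1855 CPM, stayed under the fold in both libraries. Of 17 measured genes of homing and egress 6 were higher in the members, among them S1pr1 and Klf2, and 2 were lower (Itgal and Ccr2). The median log2 ratios of this list were 0.23 and 0.42.

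Several identity genes that marked the members against Foxp3-negative cells were higher still in effector cells. Of 15 measured identity genes 8 were lower in the members and 1, Gpr83, was higher, at 55.8 against 28.6 CPM and 69.9 against 39.7 CPM. Ikzf2 was at 414 against 1191 CPM and 341 against 892 CPM. Tnfrsf4 was at 573 against 1504 CPM and 691 against 1391 CPM. Icos was at 263 against 739 CPM and 257 against 726 CPM, and the inhibitory receptor Tigit at 22.9 against 342 CPM and 31.5 against 272 CPM. Il2ra, Izumo1r, Ctla4 and Tnfrsf18 were lower in both libraries without reaching 1.5-fold in both.

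The effector list had 12 of 15 measured genes lower and none higher. It included the transcription factors Maf (47.2 against 126 CPM in the NanoCa, 49.0 against 171 CPM in the mock library), Batf and Rora, the galectin gene Lgals1 and the tissue-repair ligand Areg. Areg was at 8.6 against 204 CPM and 42.0 against 225.5 CPM. The granzyme gene Gzmb had 0 UMIs in all 310 members, which allows up to 1.76% and 2.14% of cells with a UMI by a limit of 3 counts and 2.15% and 2.60% by the exact interval, while effector cells stood at 68.6 and 166 CPM. Its share of cells with a UMI was 0.206% and 1.34% in B cells. Among the thinned resting cells, 2 in each library had a Gzmb UMI, 1.42% and 1.55%. Il10, a suppressive cytokine gene, had a UMI in 2 members of each library, 1.18% and 1.43%, against 12.1% and 9.55% of effector cells and 0.453% and 0.909% of B cells.

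Cycling genes were lower as a group, with 19 of 21 measured genes past the fold. The proliferation marker Mki67 was at 20.04 CPM in resting and 132 CPM in effector cells of the NanoCa library, and at 55.9 and 95.8 CPM in the mock library. Stmn1, a microtubule regulator of dividing cells, was at 68.7 against 344 CPM and 99.7 against 388 CPM. Against Foxp3-negative CD4 T cells, 1 of 6 measured cell cycle genes (Mcm6) was higher and none lower.

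The shares of cells with a UMI at equal depth followed the levels. After thinning, Klf2 was found in 90.8% and 86.8% of resting and 58.8% and 58.1% of effector cells. Tigit was found in 4.26% and 5.43% of resting and 40.5% and 38.1% of effector cells. In B cells the shares were 78.9% and 60.2% for Klf2 and 0.300% and 0.317% for Tigit. Ccr7 was found in 89.4% and 85.3% of resting and 71.0% and 70.5% of effector cells, but also in 78.7% and 70.8% of B cells, which use it for homing as well. Before thinning, Klf2 had a UMI in 94.7% and 94.3% of members and Tigit in 7.65% and 6.43%. Klrg1, a marker of terminal effector cells, had a UMI in 2 of 170 members of the NanoCa library (1.18%) and in none of the mock library, and in no thinned resting cell of either, which allows up to 2.13% and 2.33% by the limit of 3 counts.

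**Figure D3:**
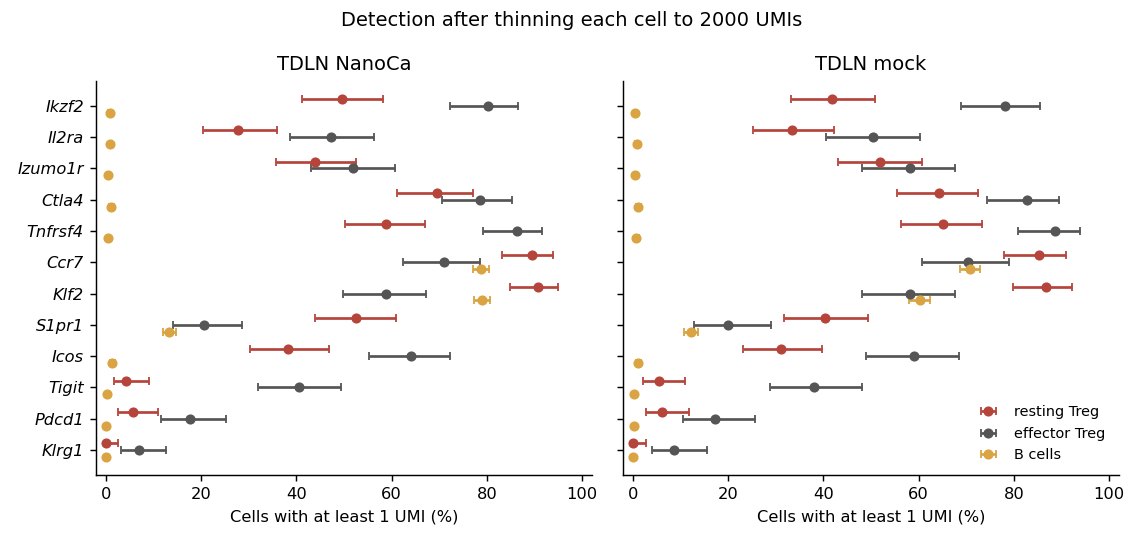
The x axis gives the percent of cells with at least 1 UMI of the gene after thinning to 2000 UMIs, with exact binomial 95% intervals; rows are genes, panels the TDLN libraries and colours resting and effector regulatory T cells and B cells. Klf2 is detected more often in resting cells (90.8% and 86.8%) and Ikzf2, Tnfrsf4 and Tigit more often in effector cells (Ikzf2 80.2% and 78.1%).

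The members were not uniform. A UMI of Ikzf2 was found in 89 members of the NanoCa and 61 of the mock library (mixed barcodes left out), and not in 79 and 74, at similar depth (median 3568 against 3401 UMIs and 3708 against 3759.5 UMIs). Members with an Ikzf2 UMI had more Tnfrsf4, at 728 against 391 CPM in the NanoCa and 972 against 427 CPM in the mock library. Ctla4 was at 770.4 against 556 CPM and 752 against 498 CPM, and Il2ra at 250 against 168 CPM and 235 against 149 CPM. Genes of the naive state went the other way in both libraries. Igfbp4 was at 167 against 298 CPM and 94.0 against 349 CPM, and Lef1 at 449 against 574 CPM and 361 against 748 CPM. Il7r stood at 94.0 against 332 CPM in the mock library and at 244 against 223 CPM in the NanoCa library. Klf2 was close in both groups of cells, at 2394 against 2515 CPM and 1670 against 1862 CPM. The part of ambient RNA and of chance detection at this depth in this split was not tested.

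**Figure D4:**
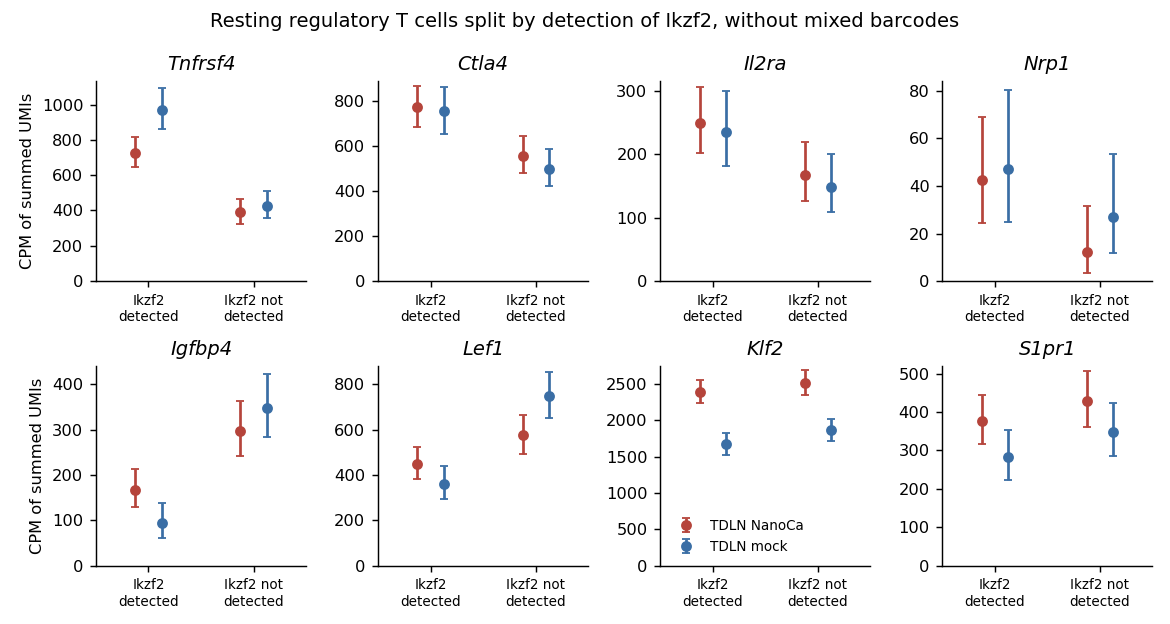
The y axis gives the level in CPM with exact Poisson 95% intervals in members with and without a UMI of Ikzf2, in red for NanoCa and blue for mock, without mixed barcodes. Tnfrsf4, Ctla4 and Il2ra stand higher in cells with Ikzf2 and Igfbp4 and Lef1 lower, in both libraries, while Klf2 differs more between the libraries than between the splits.

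The comparison of NanoCa with mock within the members asks how these cells differed between the treated and the untreated group. With all members, 2152 genes had at least 100 UMIs over both libraries; 128 were at least 1.5-fold higher with NanoCa (5.95%) and 155 at least 1.5-fold lower (7.20%), and the median log2 ratio was 0.066. Without the 7 mixed barcodes 1918 genes were measured, 57 were higher (2.97%) and 77 lower (4.01%), with a median of 0.036.

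The genes with the highest and lowest ratios over all members were mostly those of the mixed barcodes. H2-Aa stood at 868 CPM with NanoCa and 60.9 CPM in mock, a log2 ratio of 3.83, and at 45.8 and 57.7 CPM (-0.33) without mixed barcodes. Cd74 had a log2 ratio of 3.18 with all members and 0.10 without. Of the 10 lowest genes, Cxcl14 had all 839 of its UMIs and Ptx3 all 147 in 1 barcode of the mock library. For Ccl5, 260 of 318 UMIs in the NanoCa library and 140 of 156 in the mock library lay in 1 barcode each. Its log2 ratio was 0.95 (0.67 to 1.24) with all members. Without mixed barcodes it rose to 1.98 (1.07 to 3.02), at 83.0 CPM with NanoCa and 21.0 CPM in mock. This higher ratio rests on 58 and 12 UMIs, too few in sum for a call. After thinning, the ratio of Ccl5 changed sign. For Ly6a, 180 of 264 UMIs of the mock library lay in 1 barcode, and its log2 ratio of -1.97 with all members became 0.50 without mixed barcodes. The values with all members describe mostly single barcodes and not the members as a group.

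Without mixed barcodes the first gene by rank toward NanoCa was Cdk8, a kinase of the Mediator complex, at 3615 CPM with NanoCa and 1914 CPM in mock, a log2 ratio of 0.92 (0.81 to 1.02). It was detected in 169 of 170 and 138 of 140 members. The same gene had log2 ratios of 0.67 in Foxp3-negative CD4 T cells, 0.58 in effector regulatory T cells and 1.13 in B cells. B cells kept their mixed barcodes here and below. Their stromal list summed to 437 CPM with NanoCa and 638 CPM in mock, the myeloid list to 1673 and 1725 CPM, the carcinoma list to 122 and 257 CPM and the B cell list to 4781 and 3163 CPM. The part of RNA of other cell types in the B cell ratios was not tested. Skil, a negative regulator of transforming growth factor beta signalling, was at 262 and 138 CPM (0.92). Its log2 ratio was 0.50 in Foxp3-negative CD4 cells, 0.12 in effector regulatory T cells and 1.09 in B cells. The splicing factor gene Prpf8 was at 159 and 78.7 CPM (1.01; 0.50 to 1.55) and the ribosome assembly gene Gtpbp4 at 113 and 52.4 CPM (1.11; 0.49 to 1.77). In Foxp3-negative CD4 cells their log2 ratios were 0.19 and 0.02, in effector regulatory T cells 0.33 and 0.20 and in B cells 0.29 and 0.28. The rule also named Lars2 (0.63, and 0.52 with all members), Atl3 (0.83), Cd69 (0.88), Txnip (0.77), Ptma (0.53) and Malat1 (0.48, and 0.59 with all members).

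Among genes lower with NanoCa, the RNA-binding protein gene Hnrnpa0 was at 68.7 CPM with NanoCa and 280 CPM in mock, a log2 ratio of -2.03 (-2.52 to -1.55). Its log2 ratio was -1.72 in Foxp3-negative CD4 T cells, -1.82 in effector regulatory T cells and -1.79 in B cells. Odc1, the first enzyme of polyamine synthesis, was at 55.8 and 212 CPM (-1.92; -2.48 to -1.39), with -1.56 in Foxp3-negative CD4 and -1.90 in effector cells. Gnas, a stimulatory G protein gene, had a log2 ratio of -1.07, with -0.98, -0.97 and -0.96 in Foxp3-negative CD4, effector and B cells. For Hnrnpa0, Odc1 and Gnas the other populations shifted in the same direction as the members. Also named by the rule were Gm10076 (-1.72), Hist1h2ap (-1.73), Cnot6 (-1.40), Drap1 (-1.44) and Ubald2 (-1.09), by log2 ratio. All of these were likewise lower with NanoCa in Foxp3-negative CD4, effector and B cells. Cnot6, for example, had -1.18, -1.11 and -1.38 there, and Ubald2 -0.54, -0.69 and -0.70.

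Identity genes of the members stayed under the fold between the libraries. Of 9 measured genes of the 20 listed, none was past 1.5-fold in either direction, with all members or without mixed barcodes, where the median log2 ratio was -0.09, against -0.10 for the same genes in Foxp3-negative CD4 T cells and 0.036 over all genes measured. Ikzf2 was at 414 CPM with NanoCa and 341 CPM in mock (0.28; 0.01 to 0.55). Il2ra was at 212 and 191 CPM (0.15; -0.21 to 0.52), Ctla4 at 671 and 621 CPM (0.11; -0.09 to 0.32) and Tnfrsf4 at 573 and 691 CPM (-0.27; -0.47 to -0.07). Izumo1r came nearest to the fold, at 268 and 400.3 CPM (-0.58; -0.87 to -0.30), with -0.43 in Foxp3-negative CD4 and -0.28 in effector cells. The 11 measured genes of costimulation likewise held none past the fold.

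The resting list had 1 gene higher (Klf2) and 1 lower (Igfbp4) of 15 with all members, and none past the fold without mixed barcodes, with a median log2 ratio of 0.01. Klf2 was at 2449 CPM with NanoCa and 1769 CPM in mock (0.47; 0.36 to 0.58). It was also higher with NanoCa in Foxp3-negative CD4 cells (0.63) and in B cells (1.48, mixed barcodes kept). S1pr1, a target of Klf2, was at 401 and 316 CPM (0.34; 0.07 to 0.62), with 0.40 in Foxp3-negative CD4 cells. Igfbp4 moved from -0.93 with all members to 0.01 without mixed barcodes. Ccr7 was at 2631 and 2486 CPM (0.08; -0.02 to 0.18).

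The list of genes induced by type I interferon covers the response that NanoCa was meant to raise. None of its measured genes was at least 1.5-fold higher once the mixed barcodes were left out. Of 58 listed genes 17 were measured over all members, 1 was higher (Slfn1) and 4 lower (Zbp1, Ifitm3, Bst2 and Ly6e), with a median of 0.15. Without mixed barcodes 15 were measured and 1 was lower (Ifitm3 at 61.6 and 136 CPM, -1.15, and -3.45 with all members), with 12 of 15 log2 ratios above 0 and a median of 0.25, beside 0.036 over all genes. The same 15 genes had a median of 0.27 in Foxp3-negative CD4 T cells and 0.21 in effector regulatory T cells.

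For Isg15 and Bst2 the sign of the ratio turned on the mixed barcodes. Irf7, the amplifying factor of the response, was at 127 CPM with NanoCa and 103 CPM in mock (0.30; -0.19 to 0.80), against 1.15 (0.96 to 1.34) in Foxp3-negative CD4 cells. Isg15, a ubiquitin-like modifier, was at 110.2 and 92.7 CPM (0.25; -0.27 to 0.78), against 0.82 (0.62 to 1.02), and -0.64 in B cells. With all members Isg15 was lower with NanoCa, at 106 and 154 CPM (-0.54; -0.98 to -0.10). Ifi27l2a was at 1257 and 963 CPM (0.38; 0.23 to 0.54), against 0.75 (0.68 to 0.81). For Irf7 and Ifi27l2a the counting intervals of the members and the Foxp3-negative cells did not overlap, and for Isg15 they did overlap without mixed barcodes. The difference between populations was not tested. Bst2, the tethering factor that holds virions at the membrane, was at 180.4 and 166 CPM (0.12; -0.28 to 0.52), against 0.41, but with all members at 178 and 280 CPM (-0.66; -0.99 to -0.33), past the fold. Most listed genes had too few UMIs to be measured. Ifit1, a binder of foreign RNA and 1 of these, had 22 UMIs in NanoCa and 5 in mock members, with a log2 ratio of 1.85 (0.41 to 3.61), or 0.87 (-0.20 to 2.01) with all members, against 1.66 in Foxp3-negative CD4 cells. At equal depth Ifi27l2a was detected in 85.1% (78.1 to 90.5) of NanoCa and 68.2% (59.4 to 76.1) of mock resting cells.

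The promoters of Isg15 and Bst2 are shown because both are classical interferon targets among the measured genes and hold the letters GAAA, any 2 bases and GAAA again, the core of the interferon-stimulated response element. Matches on either strand, overlapping ones joined, are in capitals, in the 250 bases before the start site from RefSeq on GRCm38.p6; Isg15 lies at chr4:156200819-156201068 and Bst2 at chr8:71537473-71537722, both on the minus strand and both written in the direction of the gene.
Isg15: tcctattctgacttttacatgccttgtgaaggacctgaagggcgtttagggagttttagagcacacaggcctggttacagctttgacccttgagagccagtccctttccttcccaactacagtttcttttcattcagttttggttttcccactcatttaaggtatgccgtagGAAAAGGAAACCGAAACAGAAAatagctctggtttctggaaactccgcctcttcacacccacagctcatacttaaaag
Bst2: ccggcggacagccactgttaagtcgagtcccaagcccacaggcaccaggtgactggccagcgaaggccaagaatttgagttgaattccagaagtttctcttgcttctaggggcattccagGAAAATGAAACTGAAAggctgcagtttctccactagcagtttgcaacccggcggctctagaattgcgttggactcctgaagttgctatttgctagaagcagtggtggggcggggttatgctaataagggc
Of the 58 listed genes 44 matched a promoter, and 21 of these held the element's letters in any promoter, against 2.98% of all promoters counted singly. None of the 14 matched identity genes did. The letters say nothing of whether the element was in use in these cells.

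Of the 26 listed genes that mark effector regulatory T cells, 10 were measured with all members. Of these 7 were at least 1.5-fold lower with NanoCa and none higher, with a median log2 ratio of -1.51; without mixed barcodes 5 of 9 were lower, none higher, with a median of -0.65 and 2 log2 ratios above 0 (up to 0.50 for Ly6a). Over all genes measured, 7.20% were at least 1.5-fold lower with all members and 4.01% without mixed barcodes, with medians of 0.066 and 0.036. The same 9 genes had a median of -0.52 in Foxp3-negative CD4 T cells and -0.15 in effector regulatory T cells. Lgals1 was at 540 CPM with NanoCa and 984 CPM in mock (-0.87; -1.06 to -0.68, and -2.15 with all members), with -0.91 in Foxp3-negative CD4, -0.15 in effector and -0.98 in B cells. The calcium-binding protein gene S100a6 was at 376 and 677 CPM (-0.85; -1.08 to -0.62, and -1.73 with all members), with -0.75, -0.20 and -0.76. Its relative S100a4 was at 55.8 and 117 CPM (-1.07, and -1.77 with all members), the adhesion receptor Cd44 at 70.1 and 122 CPM (-0.80) and Batf at 65.8 and 103 CPM (-0.65, and -0.37 with all members). S100a6 and Cd44 were not among the 12 genes of the list past the fold between resting and effector cells. Of the 5 genes Lgals1, S100a6 and S100a4 are also highly expressed by stromal, myeloid and carcinoma cells. Beside them, the myeloid list summed to 303 CPM with NanoCa and 493 CPM in mock in the same members, the carcinoma list to 24.3 and 57.7 CPM and the stromal list to 196 and 203 CPM. The stromal sum joined genes that went in different directions. Its 1 measured gene had a log2 ratio of 0.33. Col1a1, Col3a1 and Sparc stood at 4.3, 12.9 and 15.7 CPM with NanoCa and 10.5, 19.2 and 21.0 CPM in mock. These 3 had few UMIs, and the intervals of their ratios included no change. Of 14 myeloid markers 11 were over 0 in each library, with S100a8 and S100a9 at 0 in both, of 8 carcinoma markers 5 and 6, and of 8 stromal markers 6, with Cdh5 and Kdr at 0. In B cells of the same libraries the carcinoma list summed to 122 and 257 CPM. The part of RNA from these cells in the lower values was not tested. At equal depth S100a6 was detected in 55.3% (46.7 to 63.7) of NanoCa and 76.0% (67.7 to 83.1) of mock resting cells, and in 52.9% and 65.2% of B cells.

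Among genes of recent stimulation, 1 of 18 measured immediate-early genes was higher without mixed barcodes and none lower; with all members 1 was higher and 3 (Jun, Fosb and Egr1) lower of 19. The higher gene was Cd69, an early activation receptor that also retains cells in the node, at 258 CPM with NanoCa and 140 CPM in mock (0.88; 0.49 to 1.28). Its log2 ratio was 0.59 in Foxp3-negative CD4 T cells, -0.08 in effector regulatory T cells and 1.24 in B cells. At equal depth it was detected in 37.6% (29.6 to 46.1) of NanoCa and 24.8% (17.6 to 33.2) of mock resting cells. The calcium and NFAT list had 1 lower (Calm3, -0.78) and none higher of 13, with a median of 0.14; with all members Itpr2 and Stim1 were higher and Ppp3ca and Calm3 lower of 14.

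The remaining lists held few genes past the fold without mixed barcodes. The interleukin-2 and STAT5 list had 1 of 15 lower (Socs1, a feedback inhibitor of cytokine signalling, -0.80) and none higher; with all members Stat5a was also higher. The interferon gamma list had Gbp2 (-0.68, and -1.42 with all members) and Socs1 lower of 15, and with all members also Iigp1. The heat shock list had 1 of 10 higher, the mitochondrial chaperone Hspd1 at 236 CPM with NanoCa and 154 CPM in mock (0.62, and 0.25 with all members), with 9 of 10 log2 ratios above 0 and a median of 0.34, against -0.02 in Foxp3-negative CD4 cells. Hsp90ab1, a cytosolic chaperone, was at 2733 and 2068 CPM (0.40; 0.30 to 0.51), against 0.08. With all members none of 12 was higher, Hspa1a and Hspa1b were lower (down to -2.98) and the median was 0.11. The glucocorticoid and quiescence list had Txnip (0.77) and Per1 (0.70) higher and Tle5 (-1.03) lower of 8, and with all members also Rgs2 higher. For Txnip the log2 ratio was 0.79 in Foxp3-negative CD4 cells. Foxo3, a forkhead factor of quiescent T cells, was higher at 106 and 59.4 CPM (0.83) and Gimap8 at 173 and 115 CPM (0.59). The lists of class I presentation (19 genes), homing and egress (12 genes) and suppressive effectors (4 genes) held none past the fold. With all members Arhgap15, Klf2 and Gpr183 of the homing list and Tgfb1 of the suppressive list were higher.

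**Figure D5:**
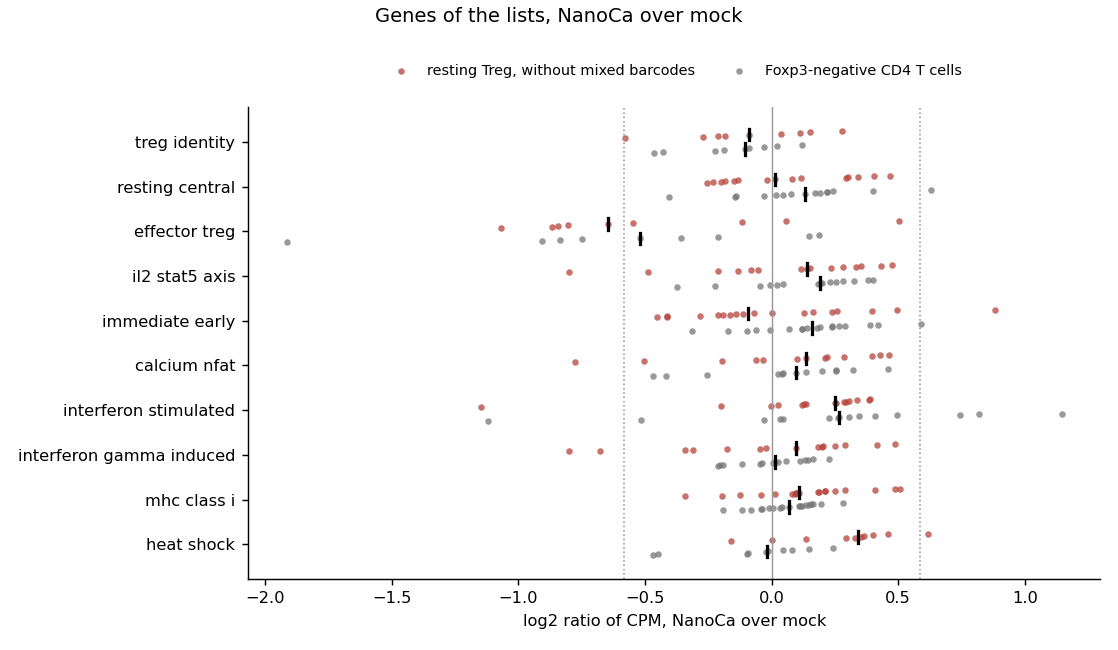
Each point is a measured gene of 1 of 10 lists; the axis gives its log2 ratio of NanoCa to mock in resting regulatory T cells and in Foxp3-negative CD4 T cells, without mixed barcodes, black bars are medians and dotted lines mark 1.5-fold. Identity genes lie within the lines in the members (median -0.09) and the effector list has the lowest median of the 10 in both populations (median -0.65, against -0.52 in Foxp3-negative CD4 cells).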

How the data were processed

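The authors deposited raw UMI counts per gene and barcode, made with Cell Ranger 7.1.0 per the file headers, with genome build, annotation and cell calling not given in the sources used here. Groups follow titles and treatment tags, 1 library per group, so no test was run. The members and gene lists were chosen with earlier results of these data known. UMIs were summed per population and library and scaled to CPM. Levels carry exact Poisson, shares Clopper-Pearson and ratios conditional binomial exact 95% intervals. Between libraries, calls needed 100 UMIs in sum and 1.5-fold; against other populations they needed 50 CPM in either and 1.5-fold in both libraries. Effector cells met the same rule with a UMI of Tnfrsf9, Ccr8 or Itgae; Foxp3-negative CD4 T cells had a Cd4 UMI and none of Foxp3, Tnfrsf9, Ccr8 or Itgae. Named genes were the 10 highest and 10 lowest NanoCa to mock ratios and the 15 highest and 10 lowest against Foxp3-negative CD4 T cells, ranked by interval bound or by the smaller ratio, without ribosomal, mitochondrial, receptor segment and rule genes, plus members of 30 lists. Doublets were kept; Scrublet in scanpy 1.11.5 was an alternative, as were thinning (seed 1) and edgeR 4.0.16 TMM factors. Leaving out mixed barcodes was added after seeing the data. The comparison script (Python 3.11.15, scipy 1.17.1) was tested on simulated data. Some genes that the rule or lists name are not reported here.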

Additional observations from a re-analysis of the deposited data

How the results depend on the processing

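No paired analysis was possible because each group held 1 library. Without replicates, the summed UMIs of 170 and 140 members limit every gene to counting error, and 1 barcode can carry a gene. The share of members among CD8-negative T cells had log2 ratios from -0.15 to 0.043 over the alternatives to the cell filters; over all kept barcodes it was 0.18 and over Foxp3-positive T cells 0.063. Counts of genes past 1.5-fold, 128 higher and 155 lower with all members, became 27 and 28 after thinning to 2000 UMIs, 42 and 52 with at least 2 UMIs of Foxp3, 57 and 77 without the 7 mixed barcodes, 329 and 390 at 50 UMIs per gene, 25 and 39 at 300 UMIs and 15 and 81 at 2-fold. The number of genes measured also changed with thinning, the cell filters and the UMI limit, so these counts are not shares of the same set. With all members 2152 genes were measured (5.95% higher, 7.20% lower) and without mixed barcodes 1918 (2.97% and 4.01%). Median-of-ratios scaling gave 91 and 179 (shift of all genes -0.067), TMM 139 and 154, and Scrublet, which removed 14 of 170 and 7 of 140 members, 119 and 150. After thinning, log2 ratios changed sign for the cytotoxic list (-1.31), the stromal list (0.098), Ccl2 (0.61), Ccl5 (-1.25), Cd74 (-0.13), Col3a1 (0.55), H2-Aa (-0.71), H2-Ab1 (-0.22), H2-Eb1 (-0.39) and Marcksl1 (-2.30). H2-Aa also changed sign with Scrublet (-0.065), without cells of over 2 B and myeloid UMIs (-0.056) and without mixed barcodes (-0.33). In the same 3 settings H2-Ab1 gave -0.34, -0.42 and -0.57 and H2-Eb1 -0.70, -0.80 and -0.94. With at least 2 UMIs of Foxp3, H2-Ab1 gave -0.48, H2-Eb1 -0.69 and Marcksl1 -0.50. Most of the class II UMIs lie in 1 barcode, which leaving out mixed barcodes removes; for the other settings the cause was not tested.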
